A study of Mus musculus with 20 samples.

Results

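The microRNAs miR-132 and miR-212 are made from neighbouring hairpins of the same primary transcript. All 4 of their mature arms, miR-132-3p, miR-132-5p, miR-212-3p and miR-212-5p, were measured among the 281 miRNAs of the deposited expression table, where they are listed as mmu-mir-132-3p, mmu-mir-132-5p, mmu-mir-212-3p and mmu-mir-212-5p. The members were taken by name, as every row with the stem miR-132 or miR-212. Small RNA was sequenced from the right ventral hippocampus of wildtype male mice of the strain C57BL/6JOlaHsd. The CBD group of 10 mice received cannabidiol, a plant cannabinoid that is not intoxicating, at 200 mg/kg/day by intraperitoneal injection. The vehicle group of 10 mice received the carrier alone, and all 20 mice were injected 2 times a day for 5 days. The mice were naïve animals without a disease model, and their age is not given in the labels.

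In neurons the shared primary transcript is driven by the transcription factor CREB, which is activated by synaptic activity and by growth factors such as BDNF. In rodent neurons miR-132-3p is known for its part in the growth of dendrites and spines. The 3p arms of both hairpins carry the same seed, the bases by which a miRNA recognises its targets, so miR-212-3p can bind the same seed matches.

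Both hairpins lie on the plus strand of chromosome 11 in the build GRCm38, Mir212 at chr11:75173388-75173478 and Mir132 at chr11:75173682-75173747, with 203 bases between them. In the GENCODE M21 annotation both lie within intron 1 of the noncoding gene 1700016P03Rik, which runs from 75172560 to 75177633 on the same strand. The hairpin sequences, from RefSeq with the build GRCm38.p6, are shown because the results compare the arms cut from each of them, which are in capitals.
Mir212 hairpin: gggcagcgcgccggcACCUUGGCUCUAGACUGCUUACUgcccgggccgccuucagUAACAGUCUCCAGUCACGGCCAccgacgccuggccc
Mir132 hairpin: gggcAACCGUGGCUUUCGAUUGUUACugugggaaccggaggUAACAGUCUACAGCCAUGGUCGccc

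The mature arms are shown with the seed, bases 2 to 8 from the 5′ end, in capitals.
miR-132-3p: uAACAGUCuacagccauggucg
miR-212-3p: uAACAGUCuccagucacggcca
miR-132-5p: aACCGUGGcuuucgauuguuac
miR-212-5p: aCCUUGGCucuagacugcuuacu
The 3p arms share the seed and are the same over the first 9 bases. They match at 17 of 22 positions and differ at 5, written with the base of miR-132-3p first and counted from the 5′ end as A10C, C14U, U17C, U20C and G22A. The 5p arms match at 9 of 22 positions and have different seeds. Of the 281 miRNAs, 247 were matched to a RefSeq mature sequence, and among these 0 others carried the seed of any of the 4 arms. The G and C content lay between 45.5% in miR-132-5p and 54.5% in miR-212-3p.

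The listed library sizes lay between 242178 and 1245429 reads. The 20 libraries carry a run number from 1 to 4, with 3 CBD and 2 vehicle libraries in run 1, 3 and 3 in run 2, 2 and 2 in run 3, and 2 and 3 in run 4. The sources used here do not say what a run was. All 5 neuronal marker miRNAs looked for were in the table, with a summed level between 139236 and 311322 RPM (reads per 1000000) over the 20 libraries. These markers were unequal. In log2 RPM the vehicle means were 16.78 for miR-9-5p and 15.78 for miR-138-5p, but 10.83 for miR-124-3p and 10.76 for miR-137-3p. Of the liver and striated muscle markers, 0 of 1 and 0 of 3 were in the table. Oligodendrocyte markers (3 of 3 in the table) summed to between 306 and 832 RPM with CBD and between 500 and 2053 with vehicle. Endothelial markers (2 of 2) summed to between 513 and 1400 with CBD and between 707 and 2673 with vehicle. Smooth muscle markers (2 of 2) summed to between 2250 and 6842 over all libraries, choroid plexus and ependyma markers (3 of 4) to between 4200 and 34089, and the 1 of 4 microglial and immune markers in the table, miR-146a-5p, to between 80.9 and 606. The part of these cell types in the values below was not tested. In tissue RNA, fewer cells of a type and less RNA per cell cannot be told apart.

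Most reads of the cluster were of miR-132-3p. Levels are log2 RPM, relative to an effective library size, as the authors deposited them. A read stands for a whole mature miRNA of 22 or 23 bases, so no scaling by length was needed, but adapters ligate to different sequences with different efficiency and ratios between arms are not ratios of molecules. miR-132-3p had a mean level of 12.81 ± 0.60 (SD, n = 20) and ranked 22 of 281. It was read between 1239 and 9886 times per library and took between 82.2% and 98.2% of the reads of the cluster, with a median of 92.8%. miR-212-3p followed at 8.42 ± 0.31 (SD, n = 20, rank 145), miR-132-5p at 7.23 ± 0.37 (SD, n = 20, rank 209) and miR-212-5p at 5.98 ± 0.80 (SD, n = 20, rank 273). This order held within each of the 20 libraries. The closest neighbours were miR-212-3p and miR-132-5p in vehicle replicate 2, whose log2 ratio, miR-132-5p over miR-212-3p, was -0.03.

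Depth limited the arms unequally. The counting error of a log2 level was at most 0.041 for miR-132-3p, far below its SD between libraries. For miR-212-5p, read between 6 and 210 times per library, it reached 0.59 at 6 reads in vehicle replicate 7 (95% Poisson interval 2.20 to 13.1 reads). These errors cover counting only, since no molecular identifiers are named for the libraries.

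miR-132-3p had a higher mean with CBD than with vehicle, but the difference did not pass the test and its sign was not the same in all 4 runs. The level with CBD ran from 12.31 through a median of 12.92 to 14.31, and with vehicle from 11.52 through 12.81 to 13.26, so the groups overlapped. The CBD mean was 12.99 ± 0.60 (SD, n = 10) and the vehicle mean 12.62 ± 0.58 (SD, n = 10). The log2 difference was 0.37 (SE 0.25, 95% interval -0.15 to 0.88), for which limma gave p = 0.159, or 0.683 once adjusted over 281 miRNAs. With run as a further term it was 0.41 (SE 0.20, unadjusted p = 0.04999, adjusted p = 0.334). An exact permutation test within runs over all 12000 relabellings gave p = 0.0655. Without the run term the difference was 0.24 without vehicle replicate 2 and 0.22 without CBD replicate 6. With each library weighted by its estimated quality (array weights) the difference was 0.010, and in that fit the 3 vehicle libraries of run 4 had the highest weights, up to 4.62. With the same weights and the run term it was 0.28 (adjusted p = 0.325).

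Within run 1 the miR-132-3p levels with CBD were 12.50, 13.01 and 12.82, and those with vehicle 11.94 and 11.52. Within run 2 the CBD levels were 13.41, 13.45 and 14.31, and the vehicle levels 13.26, 13.04 and 12.66. In both runs every CBD library lay above every vehicle library. Within run 3 the CBD levels were 12.45 and 13.02 and the vehicle levels 12.09 and 12.99, which overlapped. Within run 4 the CBD levels were 12.62 and 12.31 and the vehicle levels 12.89, 12.74 and 13.11, so that both CBD libraries lay below all vehicle libraries. How many of the 281 miRNAs were separated like this within a run, here and below, is not given. Such a separation is therefore not shown to be particular to these arms. The log2 difference was 1.05 in run 1 (95% interval 0.34 to 1.76), 0.73 in run 2 (0.10 to 1.37), 0.19 in run 3 (-0.59 to 0.97) and -0.44 in run 4 (-1.15 to 0.27). The intervals within runs, here and below, use a spread pooled over all runs in 1 limma fit. They do not measure the spread among the few libraries of each run. Whether it differed between runs was tested with the treatment by run terms in limma, which gave p = 0.0282, or 0.763 once adjusted over all miRNAs. Of the 281 miRNAs, 4.98% had an unadjusted p under 0.05 in that test and 0% an adjusted p under 0.05. The plot of levels by run shows these values for each library.

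**Figure D1:**
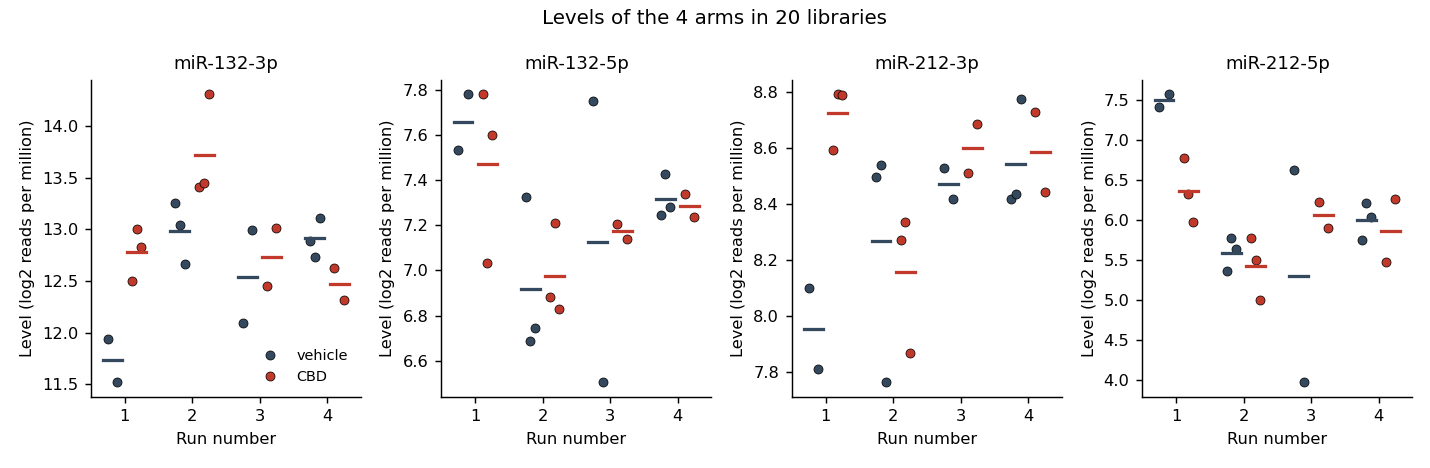
Level of each arm (y axis, log2 RPM, a separate scale for each arm) in each of the 20 libraries, by run number (x axis); points are libraries, bars are means, red is CBD and dark blue is vehicle. In miR-132-3p the CBD libraries lie above the vehicle libraries in runs 1 and 2 and below them in run 4.

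None of the other 3 arms passed the test, and the interval of each difference over all libraries included 0. miR-212-3p, the arm with the same seed, ran from 7.87 through a median of 8.55 to 8.79 with CBD and from 7.76 through 8.43 to 8.78 with vehicle. Its log2 difference was 0.17 (SE 0.17, 95% interval -0.18 to 0.53, limma adjusted p = 0.817). In run 1 all 3 CBD libraries, at 8.59, 8.79 and 8.79, lay above both vehicle libraries, at 8.10 and 7.81, a difference of 0.77 (95% interval 0.14 to 1.40). In runs 2 to 4 the difference was -0.11, 0.13 and 0.04, and without run 1 it was -0.02 over the other libraries.

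miR-132-5p had the smallest difference of the cluster, at -0.0023 (SE 0.19, 95% interval -0.40 to 0.39, adjusted p = 0.994). It ran from 6.83 through 7.21 to 7.78 with CBD and from 6.50 through 7.30 to 7.78 with vehicle. Its sign turned with median centring (0.08) and when any of 10 single libraries was left out.

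miR-212-5p ran from 5.01 through 5.94 to 6.78 with CBD and from 3.98 through 5.91 to 7.58 with vehicle. The spread was 0.51 (SD, n = 10) among CBD and 1.04 (SD, n = 10) among vehicle libraries. The log2 difference was -0.11 (SE 0.34, 95% interval -0.82 to 0.59, adjusted p = 0.965). In run 1 the order was opposite to that of the 3p arms. The CBD libraries stood at 6.78, 6.33 and 5.98 and the vehicle libraries at 7.42 and 7.58, a difference of -1.14 (95% interval -2.23 to -0.04). Without vehicle replicate 1 or without vehicle replicate 2 the difference over all libraries was 0.04 or 0.06, so its sign rests on these libraries.

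Of the 4 arms, 0 passed at an adjusted p under 0.05, against 0% of the 281 miRNAs. At an unadjusted p under 0.05 the count was 0 of 4 without the run term, where 7.83% of all miRNAs passed, and 1 of 4 with it, where 14.9% passed. That 1 was miR-132-3p, at p = 0.04999. The authors' deposited table gives log2 fold changes of 0.43 for miR-132-3p, -0.02 for miR-132-5p, 0.20 for miR-212-3p and -0.23 for miR-212-5p. In the authors' deposited table the p of miR-132-3p is 0.0258, or 0.186 after adjustment, and the other arms have adjusted p between 0.313 and 0.967. The mean level of miR-132-3p in the authors' deposited table, 12.78, is not that of the 20 libraries, 12.81, so it was not made from these columns as they stand.

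**Figure D2:**
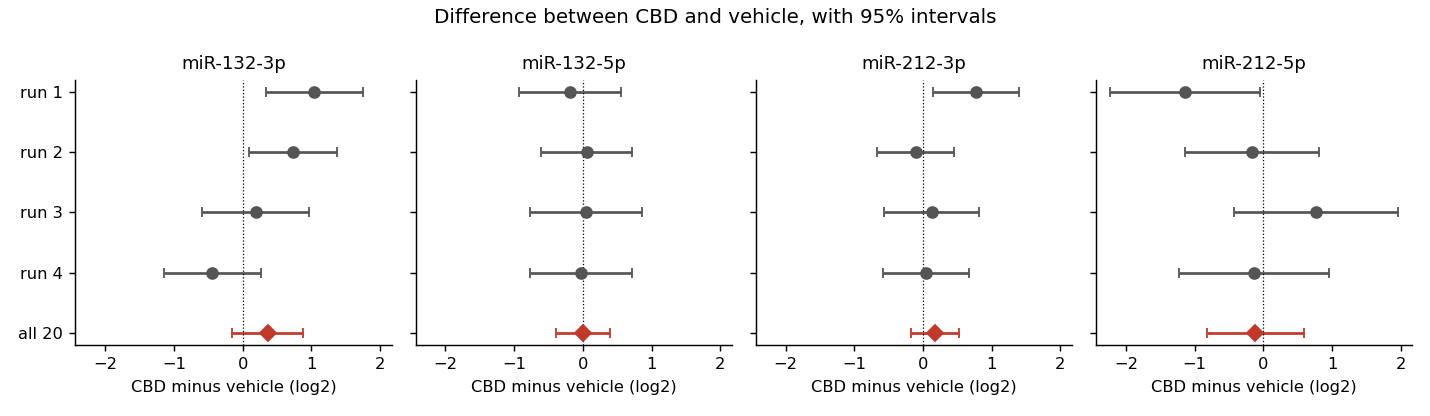
Difference in level between CBD and vehicle (x axis, log2) within each run (grey circles, 4 to 6 libraries each) and over all 20 libraries (red diamonds), with 95% intervals from limma, for each arm. The intervals within runs use a spread pooled over all runs. For miR-132-3p the estimate goes from 1.05 in run 1 to -0.44 in run 4, and the intervals over all libraries include 0 for each of the 4 arms.

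Both miR-132-3p and miR-212-5p differed between runs, and run 2 stood at opposite ends of the 2 arms. For miR-132-3p the mean level was 12.36 in run 1, 13.36 in run 2, 12.64 in run 3 and 12.73 in run 4 (limma test of the run terms beside treatment, adjusted p = 0.0209). For miR-212-5p it was 6.82, 5.51, 5.69 and 5.95 (adjusted p = 0.0293). Run 2 held the highest mean of miR-132-3p and the lowest of miR-212-5p. For miR-132-5p and miR-212-3p the adjusted p was 0.119 and 0.383. Of all miRNAs 48.0% passed this test, so a run difference in 2 of 4 arms is near the background. The call for miR-132-3p was lost without vehicle replicate 2 or without CBD replicate 6 (adjusted p = 0.0511 and 0.0571) and with quantile normalisation (0.0804). The call for miR-212-5p was lost without any of CBD replicates 1 and 6 and vehicle replicates 1 and 2 (adjusted p between 0.0525 and 0.105).

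A ratio of arms within a library does not depend on how that library was scaled. The arm ratio of the miR-132 hairpin, miR-132-3p over miR-132-5p, averaged 5.76 ± 0.83 (SD, n = 10) in CBD libraries on the log2 scale and 5.40 ± 0.93 (SD, n = 10) in vehicle libraries. The lowest was 3.74 in vehicle replicate 2 and the highest 7.48 in CBD replicate 6, or from 13.3-fold to 178-fold, with a median of 53.2-fold over the 20 libraries. The difference between treatments was 0.37 (permutation test, p = 0.364, adjusted p = 0.678 over 6 ratios). It was 0.18 without CBD replicate 6 or without vehicle replicate 2. Within runs 1 to 4 it was 1.23, 0.68, 0.14 and -0.41, and the exact permutation test within runs gave p = 0.164 (adjusted p = 0.398).

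The arm ratio of the miR-212 hairpin, miR-212-3p over miR-212-5p, averaged 2.58 ± 0.41 (SD, n = 10) in CBD libraries and 2.29 ± 1.20 (SD, n = 10) in vehicle libraries. It was lowest in the vehicle libraries of run 1 and highest in vehicle replicate 7, where miR-212-5p rests on 6 reads, from 1.18-fold to 21.8-fold. The difference was 0.29 (permutation test, p = 0.488, adjusted p = 0.678), with 1.91, 0.05, -0.64 and 0.18 within runs 1 to 4. It was 0.11 without vehicle replicate 1, 0.06 without vehicle replicate 2 and 0.53 without vehicle replicate 7. Between the hairpins, miR-132-3p over miR-212-3p averaged 4.49 ± 0.84 (SD, n = 10) in CBD libraries and 4.29 ± 0.45 (SD, n = 10) in vehicle libraries. Its difference was 0.19 (permutation test, p = 0.565, adjusted p = 0.678), and within runs 1 to 4 it was 0.28, 0.84, 0.06 and -0.49. The remaining 3 ratios had adjusted p of 0.678 or 0.679. None of the 6 ratios passed within runs either, at adjusted p between 0.398 and 0.484.

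The ratio of the 3p arms, which share a seed and a transcript, differed between runs. On the log2 scale miR-132-3p over miR-212-3p averaged 3.94 in run 1, 5.14 in run 2, 4.10 in run 3 and 4.17 in run 4. In run 2 the ratio was between 4.50 and 6.44, and of the 14 libraries in the other runs 1 stood above the lowest of these, vehicle replicate 7 at 4.57. Runs held 59.8% of the variation of this ratio between libraries (permutation test of the run labels, p = 0.00063, adjusted p = 0.00378 over 6 ratios). Random run labels would hold 15.8% on average. With any 1 library left out the adjusted p was at most 0.00918. For miR-132-3p over miR-132-5p the run means were 4.81, 6.41, 5.49 and 5.43, and the adjusted p was 0.0255. That call was lost without CBD replicate 1, 4 or 6 or vehicle replicate 1 or 2 (adjusted p between 0.0535 and 0.0772). For miR-132-3p over miR-212-5p the adjusted p was 0.0342, and the call was lost without CBD replicate 1, 4, 5 or 6 or vehicle replicate 1, 2 or 3 (between 0.0548 and 0.117). The 3 ratios without miR-132-3p had adjusted p between 0.130 and 0.321, but without CBD replicate 3 miR-212-3p over miR-212-5p and miR-132-5p over miR-212-5p passed (0.0316 and 0.0378). Ratios of other miRNAs were not tested in this way. In level, 48.0% of the 281 miRNAs differed between runs (limma test of the run terms, adjusted p under 0.05), miR-132-3p among them.

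**Figure D3:**
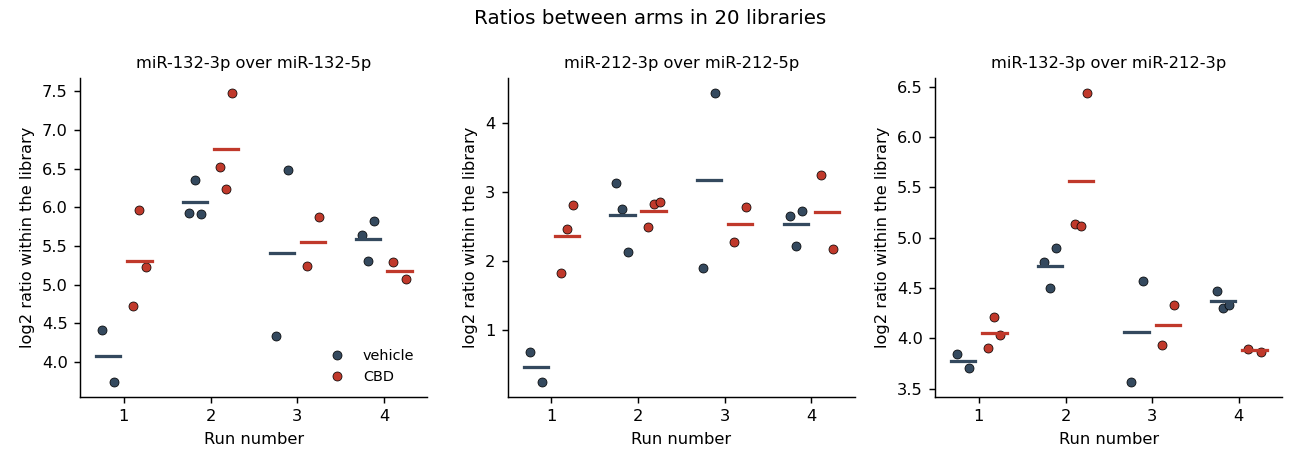
Log2 ratio of 2 arms within each library (y axis, a separate scale for each ratio) by run number (x axis), for both arms of each hairpin and for the 3p arms of the 2 hairpins; points are libraries, bars are means, red is CBD and dark blue is vehicle. The ratio of miR-132-3p over miR-212-3p is highest in run 2, with a mean of 5.14.

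Across the 20 libraries the 5p arms varied together, and miR-132-3p varied against both of them. All 6 pairs were compared, and p-values were adjusted over these 6. Each level is divided by the same effective library size within a library. The 5p arms had Pearson r = 0.75 (permutation test, p = 0.00014, adjusted p = 0.00084) and Spearman rho = 0.61 (p = 0.00512, adjusted p = 0.0154) between miR-132-5p and miR-212-5p. Without vehicle replicates 4 and 7, the libraries farthest from the median of miR-132-5p, r was 0.68. After the mean of each run was removed it was 0.60 (permutation within runs, p = 0.0791, adjusted p = 0.228). The libraries farthest from the median were then vehicle replicates 6 and 7, both of run 3. Without these 2, r with run means removed was 0.19, so within runs the relation rests on them.

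The main arm, miR-132-3p, went against both 5p arms. With miR-212-5p it had r = -0.72 (permutation test, p = 0.00053, adjusted p = 0.00159) and rho = -0.69 (p = 0.00133, adjusted p = 0.00798). Without CBD replicate 6 and vehicle replicate 2, the libraries farthest from the median of miR-132-3p, r was -0.61. With the run means removed it was -0.65 (permutation within runs, p = 0.00161, adjusted p = 0.00966), and within run 2, the only run with 6 libraries, -0.77. It was -0.76 among CBD and -0.80 among vehicle libraries. With the arm of its own hairpin, miR-132-5p, miR-132-3p had r = -0.61 (permutation test, p = 0.00428, adjusted p = 0.00856) and rho = -0.57 (p = 0.00955, adjusted p = 0.0191). This second relation was -0.49 without the 2 farthest libraries (adjusted p = 0.0736) and -0.38 with run means removed (adjusted p = 0.228), so it was not past the threshold within runs. After median centring with run means removed it was -0.12, and the relation of miR-132-3p with miR-212-5p was -0.52. The relation with miR-132-5p was 0.13 within run 2, -0.66 among CBD libraries and -0.65 among vehicle libraries. The other runs hold fewer than 6 libraries each, and no value is given within them.

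The relation between the 3p arms did not pass the test over all libraries, with r = 0.07 and rho = 0.06 (permutation test, p = 0.763 and 0.816), and single libraries set its value. It was -0.20 without vehicle replicate 2 and 0.42 without CBD replicate 6. The value was -0.73 among CBD and 0.63 among vehicle libraries, a difference that was not tested, and 0.44 with run means removed (p = 0.130, adjusted p = 0.228). With run means removed it was 0.60 without the 2 libraries farthest from the median of miR-132-3p, and 0.60 after median centring. In run 2, CBD replicate 6 had the highest miR-132-3p of all libraries, at 14.31, and the third lowest miR-212-3p, at 7.87. In run 1, vehicle replicate 2 had the lowest miR-132-3p, at 11.52, and the second lowest miR-212-3p, at 7.81. The pairs of miR-212-3p with miR-212-5p and with miR-132-5p had r = -0.10 and 0.16 (permutation test, adjusted p = 0.763 and 0.755).

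**Figure D4:**
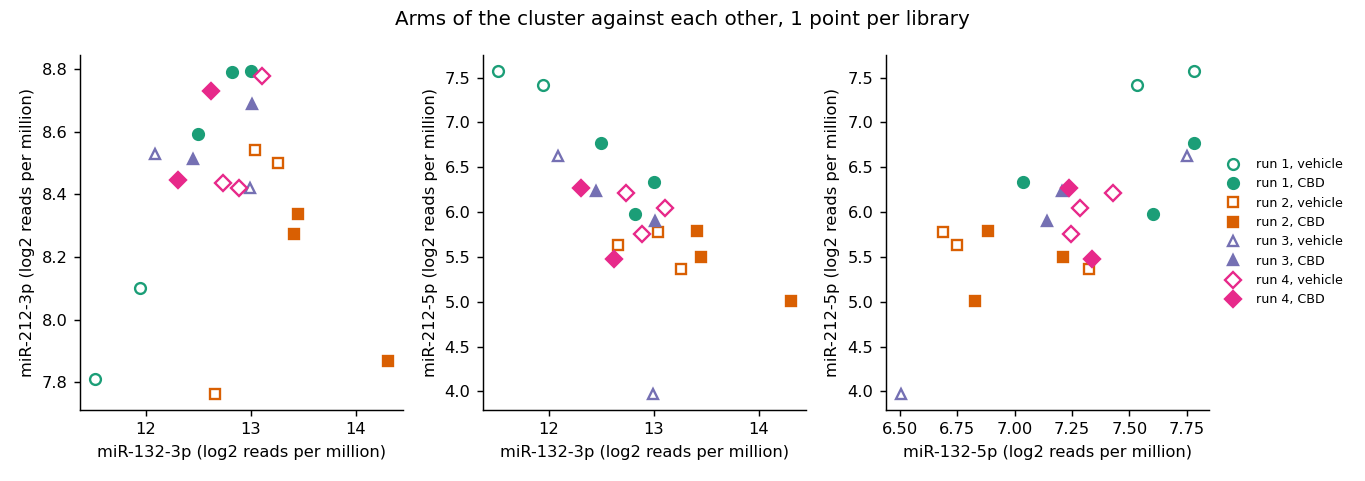
Levels of 2 arms against each other (both axes, log2 RPM), with 1 point per library, filled for CBD and open for vehicle, and colour and shape by run. miR-212-5p is lower where miR-132-3p is higher (r = -0.72, middle panel), while the 3p arms show r = 0.07 (left panel).

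Other hairpins of the table give the range in which these values stand. For 62 hairpins both arms were measured under the same stem, and the correlation between their arms over the 20 libraries ran from -0.64 to 0.89 with a median of 0.16. It was below 0 in 23 of them. The miR-132 hairpin ranked 2 from the lowest and the miR-212 hairpin, at -0.10, ranked 21. With run means removed their ranks were 7 and 12. The SD of the log2 arm ratio was 0.88 for both hairpins, ranks 15 and 14 from the highest, against a median of 0.71. These are descriptions of the same 20 libraries.

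**Figure D5:**
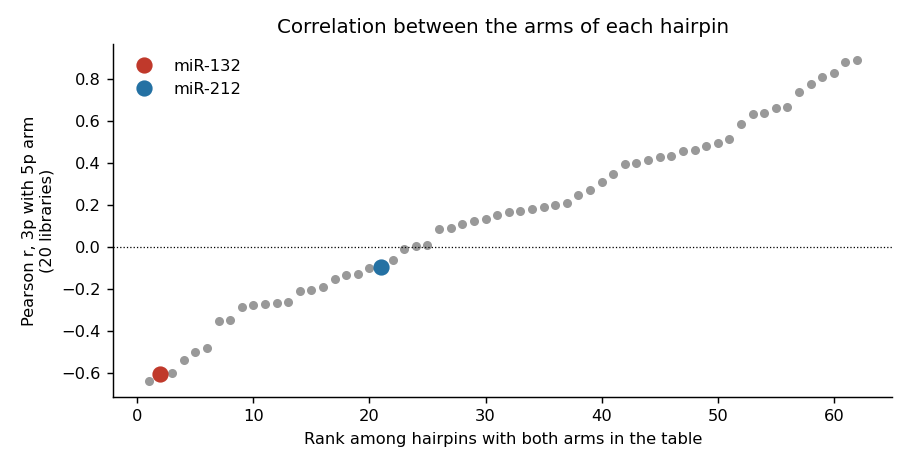
Pearson r between the 3p and the 5p arm over 20 libraries (y axis) for each of 62 hairpins with both arms in the table, ordered by r (x axis, rank). The miR-132 hairpin (red, r = -0.61) is second from the lowest, and the miR-212 hairpin (blue, r = -0.10) is at rank 21.

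The scaling of the libraries moved with some of these values. The scaling factor of a library, its effective size divided by its listed size, lay between 0.693 and 1.17. In all, 16 relations of arms and ratios with the scaling factor and the listed reads were computed. The ratio of miR-132-3p over miR-132-5p had Spearman rho = -0.68 with the scaling factor (permutation test, p = 0.00144, adjusted p = 0.0115) and Pearson r = -0.58 (p = 0.00691, adjusted p = 0.0553). The ratio of miR-132-3p over miR-212-3p had rho = -0.63 (adjusted p = 0.0118) and r = -0.63 (adjusted p = 0.0553). Without the 2 libraries of most extreme scaling factor these r were -0.50 and -0.58, and with run means removed -0.41 and -0.54 (adjusted p = 0.719 for both). miR-212-5p had rho = 0.73 with the scaling factor (adjusted p = 0.00512) and r = 0.47 (adjusted p = 0.133), and 0.26 with run means removed. By Spearman's rho alone, miR-132-3p (-0.57, adjusted p = 0.0257), miR-132-5p (0.64, adjusted p = 0.0118) and miR-212-3p over miR-212-5p (-0.66, adjusted p = 0.0118) also passed. No relation with the listed reads passed, at adjusted p of 0.104 or more. Relations of the other miRNAs with the scaling factor are not given, so none of these is shown to be particular to the cluster. Each level is also divided by the effective size, which holds the scaling factor. The part of the scaling in the relations between arms was not tested.

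The miRNAs whose levels were most like each arm differed between the arms. Likeness was taken as Pearson r over the 20 libraries after the mean of each treatment in each run was removed, among the other 280 miRNAs. It is given without a test, as the names were picked for it. The most like miR-132-3p were miR-423-3p (r = 0.80), miR-181b-5p (0.79), miR-431-5p (0.79), miR-350-5p (0.73) and miR-666-3p (0.72). For miR-132-5p they were miR-384-3p (0.85), miR-379-5p (0.84) and miR-218-5p (0.83). For miR-212-3p they were miR-30a-3p (0.73), miR-496a-3p (0.68) and miR-128-3p (0.64). For miR-212-5p they were miR-148b-3p (0.86), miR-345-5p (0.76) and miR-346-5p (0.72).

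Within the cluster, miR-212-5p ranked 10 in likeness to miR-132-5p and 274 in likeness to miR-132-3p. miR-212-3p ranked 101 in likeness to miR-132-3p. Across the 246 other miRNAs with a sequence, which are not independent, likeness to miR-132-3p correlated with G and C content at r = 0.27 and likeness to miR-132-5p at r = -0.42. For miR-212-3p and miR-212-5p this was -0.39 and -0.13. The part of base composition in the relations between arms was not tested.

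Other miRNAs reported in rodent neurons as activity-regulated or synaptic were mostly lower with CBD, without passing a test. Of 24 listed by name, 22 were measured, 4 of them also neuronal markers above and 1 the immune marker, and 3 had a higher and 19 a lower mean with CBD. The median log2 difference was -0.24, or -0.16 with 5 higher and 17 lower after median centring. Over all 281 miRNAs 38.4% were higher and the median was -0.08, or 51.2% and 0.0034 after median centring. At an unadjusted p under 0.05 the count was 0 of 22, where 7.83% of all miRNAs passed, or 3 with the run term, all lower, where 14.9% of all passed. At an adjusted p under 0.05 it was 0 with and without the run term. The smallest p belonged to miR-124-3p, 1 of the neuronal markers above, at -0.54 (SE 0.27, limma unadjusted p = 0.0552, or 0.0140 with the run term). Next were miR-335-5p at -0.47, miR-34a-5p at -0.40, miR-135a-5p at -0.66 and miR-218-5p at -0.43 (adjusted p between 0.578 and 0.619). The 3 miRNAs of the list at an unadjusted p under 0.05 with the run term were miR-124-3p, miR-34a-5p and miR-135a-5p. The difference of miR-132-3p, 0.37, was above that of every measured miRNA of the list, the highest of which was 0.17 for miR-485-5p. Whether it differed from them was not tested. Among all 281 miRNAs, miR-132-3p ranked 65 by p in the fit without the run term.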

How the data were processed

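Per the labels' protocols, libraries were made from total RNA with the Illumina TruSeq small RNA kit. The authors deposited log2 levels of 281 miRNAs in 20 columns, each matched to 1 sample by mouse number. The submitters' processing notes name mm10, edgeR and limma (aligner, counter and row filter: not given in the sources used here). Each log2 value the authors deposited was log2((n + 0.5) / (L + 1) × 1000000), with whole reads n (tolerance 1e-06, 100% of values) and an effective library size L. The authors' deposited comparison table, per the file headers, holds log2 fold changes, p-values, a t score, and a ratio that equals 10 raised to that change and was not used.

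Treatment was tested with limma 3.58.1 (R 4.3.3) on the deposited values of all miRNAs, treatment as the only term, variance trend, two-sided, Benjamini-Hochberg over 281 with a threshold of 0.05. Replicate numbers follow accession order. Neither low-value filter (log2 above 0 in 10 libraries, or a mean above 10 RPM) removed any miRNA, so neither could change a result. The routines were tested on simulated data. Ratios and correlations used permutation tests with 100000 resamples. The members and lists were chosen with earlier results of these data known. The planned design named 3 arms; the table held 4, so ratios and pairs were adjusted over 6 rather than 3. The tests of ratios between runs were added after seeing the data. Named beside the members, by rule, were the miRNAs most like each arm (5 for miR-132-3p, 3 for the others) and the 5 of the activity list with the smallest p. Alternatives were other scalings, variance models, weights, a rank test, filters, a run term and left-out libraries or runs.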

Additional observations from a re-analysis of the deposited data

Results flagged for a closer look

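In the CBD group, the log2 ratio of miR-132-3p over miR-212-3p was 6.44 in CBD replicate 6, a library of run 2. Its gap to the next library was 0.507 of the range of the group, above the 0.466 that Dixon's test allows for 10 samples. This was 1 of 20 sets of values looked at, and chance flags about 1 in 20. In that library miR-132-3p was read 4727 times and miR-212-3p 54 times, and its listed size was 326559 reads. Without it the difference of this ratio between CBD and vehicle was -0.03 in place of 0.19.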

How the results depend on the processing

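No alternative brought the CBD difference of any of the 4 arms or 6 ratios past an adjusted p of 0.05. The difference of miR-132-3p stayed positive, between 0.010 (array weights) and 0.69 (run 4 left out, with the run term), and between 0.22 and 0.44 with each library left out. That of miR-132-5p turned to 0.078 with median centring, 0.061 with quantile normalisation, 0.021 with run 4 left out and 0.024 with run 1 left out and the run term. With each library left out it lay between -0.083 and 0.059. Leaving out run 1 turned miR-212-3p to -0.016, miR-212-5p to 0.063 (0.097 with the run term), and the ratios of miR-212-3p over miR-212-5p to -0.078, miR-132-5p over miR-212-5p to -0.063 and miR-132-5p over miR-212-3p to 0.015. Leaving out run 2 turned miR-132-3p over miR-212-3p to -0.087. With each library left out, miR-132-3p over miR-132-5p lay between 0.18 and 0.49, miR-212-3p over miR-212-5p between 0.060 and 0.53, miR-212-5p between -0.34 and 0.056, miR-132-3p over miR-212-3p between -0.025 and 0.26, and miR-132-5p over miR-212-5p between -0.0072 and 0.26. The cause was not tested. The correlation of miR-132-3p with miR-132-5p lost its call at -0.38 (run means removed), -0.45 (median centring, adjusted p = 0.0950) and -0.49 (2 farthest libraries left out). That of miR-132-5p with miR-212-5p lost it at 0.60 with run means removed. That of miR-212-3p with miR-212-5p turned to 0.059 with median centring and 0.12 without the 2 farthest libraries, and that of miR-132-5p with miR-212-3p to -0.011 with run means removed. The correlation of miR-132-3p with miR-212-5p kept its call in all 3 alternatives, between -0.66 and -0.61. The count of the activity list at an unadjusted p under 0.05 went from 0 to 3 of 22 with the run term, while that over all 281 miRNAs went from 7.83% to 14.9%. Of the 281 miRNAs, 0 passed in the fit as reported, 24 with array weights and 0 with array weights and the run term. Low reads limit miR-212-5p most. No paired analysis was possible because the replicate numbers follow accession order and pair no mice.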
